A study of Rattus norvegicus with 138 samples.

Results

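The 10 genes described here encode the cathepsins Ctsa, Ctsb, Ctsc, Ctsd, Ctsh, Ctsk, Ctsl, Ctss and Ctsz and the related protease legumain (Lgmn), and they were chosen by symbol from the 16181 complete gene rows of the table. Transcript abundance was measured by RNA-Seq in TPM, a share of all transcripts scaled for transcript length, in the tibialis anterior (TA) muscle of Lewis rats, described in the study as inbred males about 4 months old. Volumetric muscle loss (VML) was made in 1 leg with a 6 mm biopsy punch, and the defect was left unrepaired or filled with minced muscle graft (MMG), small pieces of the rat's own excised muscle. Injured muscle and the uninjured contralateral TA were taken at 3, 7, 14 and 28 days, and some rats are labelled as running, with no description of the running in the labels. Control muscle came from both legs of 2 rats labelled as sham at day 0, so the 4 control muscles represent 2 animals.

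After libraries with fewer than 7000 symbols above 1 TPM were dropped, 68 non-running muscles from 44 rats and 46 running muscles remained. The unrepaired injured groups held 3, 8, 4 and 4 muscles at 3, 7, 14 and 28 days, and the grafted groups held 7, 8, 4 and 4. Each unrepaired and each grafted contralateral group held 2 muscles, except at 7 days, when there were 4 and 6. Repeat libraries of 1 muscle were averaged, and each muscle counted as 1 sample. All 10 genes passed the filter on low values.

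Cathepsins are proteases of the lysosome, the acidic compartment in which cells degrade engulfed and spent material. Most are cysteine proteases, whereas Ctsd is an aspartic protease and Ctsa is a serine carboxypeptidase. Legumain cuts after asparagine and helps to mature several cathepsins. Macrophages are rich in these enzymes, Ctss trims the invariant chain during antigen presentation, and Ctsk is the collagen-degrading enzyme best known from osteoclasts. In damaged muscle they are associated with the clearance of debris and the turnover of matrix.

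To show the regions before the gene starts that go with the largest and smallest changes described below, the 250 bases upstream of the start of Ctss, Ctsk and Ctsd are given 5′ to 3′ from RefSeq, build GRCr8. Capitals mark matches, on either strand, to CACGTG (the E-box bound by factors such as TFEB), GGGCGG (a GC box), GAGGAAG (a core of the kind bound by the myeloid factor PU.1) and TATAAA. On the printed strand a match may stand in its reverse complement form.
Ctss, chr2:185775146-185775395, strand +: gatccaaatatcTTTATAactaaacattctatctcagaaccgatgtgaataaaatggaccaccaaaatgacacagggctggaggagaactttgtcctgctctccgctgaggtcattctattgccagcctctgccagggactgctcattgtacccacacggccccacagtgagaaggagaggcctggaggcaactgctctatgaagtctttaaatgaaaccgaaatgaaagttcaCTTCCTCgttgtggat
Ctsk, chr2:185747298-185747547, strand +: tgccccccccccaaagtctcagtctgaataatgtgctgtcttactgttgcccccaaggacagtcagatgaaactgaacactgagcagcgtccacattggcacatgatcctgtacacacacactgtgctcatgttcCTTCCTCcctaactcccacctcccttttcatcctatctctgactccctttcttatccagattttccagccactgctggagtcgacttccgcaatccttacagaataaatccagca
Ctsd, chr1:206968822-206969071, strand -: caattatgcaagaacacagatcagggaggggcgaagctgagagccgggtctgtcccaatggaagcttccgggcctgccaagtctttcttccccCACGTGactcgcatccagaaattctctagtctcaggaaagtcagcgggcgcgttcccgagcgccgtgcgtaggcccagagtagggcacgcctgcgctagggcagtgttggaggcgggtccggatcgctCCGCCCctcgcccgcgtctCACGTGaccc
Of the 10 genes, 9 had a promoter in the table, and Ctsb is named only. Over the full window of 300 bases, which ends 50 bases past the start, CACGTG occurred in 1 of the 9 (Ctsd, at 2 places) and in 6.42% of all 33469 promoters. GGGCGG occurred in 7 of the 9, with no match in Ctsk and Ctss, and in 33.1% of all promoters. GAGGAAG occurred in Ctsc, Ctsh, Ctsk, Ctss and Ctsz and in 12.4% of all promoters, TATAAA in Ctss alone of the 9 and in 14.2%, and the AP-1 core TGANTCA in none of the 9 and in 7.33%. A match is only a match of letters. Ctsk and Ctss lie on the same strand of chromosome 2 with starts 27848 bases apart.

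In control muscle the aspartic protease Ctsd stood far above the rest of the family. Its TPM values were 361, 381, 406 and 422, with a mean of 392 ± 26.9 (SD, n = 4). The lysosomal endopeptidases Ctsb and Ctsl followed at means of 85.6 ± 3.88 and 84.6 ± 12.2 TPM, and their values overlapped. The carboxypeptidase Ctsa was at 55.6 ± 8.45 TPM, the dipeptidyl peptidase Ctsc at 29.7 ± 3.44 and the aminopeptidase Ctsh at 27.4 ± 3.68, the last 2 overlapping. Lgmn at 18.2 ± 1.83 and the carboxypeptidase Ctsz at 14.6 ± 2.70 TPM overlapped as well. Ctss (3.28 to 5.16 TPM) and Ctsk (0.1 to 2.62 TPM) were lowest, and TPM, being scaled for transcript length, allows this order.

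The 10 genes together summed to 714 TPM in control muscle and to 9056 TPM in unrepaired muscle at 3 days. All 10 rose at 3 days, and the muscles of the injured group did not overlap with the control muscles for any of them, as was so, with the injured group above, for 70% of all genes tested. Members were called higher when the log2 fold change exceeded 1 and the Benjamini-Hochberg adjusted p was under 0.05, from a limma fit over all genes on log2(TPM + 1). By that rule 48.8% of the 11213 genes tested were called higher at 3 days. TPM is a share of all transcripts, and muscle fibre transcripts were lower at the same time. The summed level of 12 fibre genes (such as Ckm and Acta1) ranged from 241528 to 304580 TPM in control and from 48814 to 66574 TPM at 3 days, and all 12 were called lower, and their part in that percentage was not tested. The median gene was 0.97 higher on the log2 scale at 3 days, against 4.53 for the median of the 10 members. When TPM was rescaled by median-of-ratios size factors, the median gene moved to 0.09 and the members' median to 3.41.

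Ctss, which serves antigen presentation, showed the largest log2 fold change of the family at 3 days. Its control values were 3.28, 3.59, 4.13 and 5.16 TPM and its unrepaired values at 3 days were 298, 328 and 413 TPM. The difference was 6.11 ± 0.28 (log2 fold change ± SE, adjusted p = 2.2e-26 by limma), 45th from the top among the 11213 genes tested. Every injured muscle stood far above every control muscle.

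Lgmn rose from 15.7, 18.1, 18.9 and 20.0 TPM in control to 771, 834 and 1058 TPM, a log2 fold change of 5.53 ± 0.24 (adjusted p = 1.4e-27). Ctsb, an abundant lysosomal endopeptidase, went from 81.7, 83.0, 87.5 and 90.1 TPM to 1957, 2138 and 3263 TPM, a log2 fold change of 4.79 ± 0.23. Ctsl, another endopeptidase, went from 66.6, 88.5, 89.8 and 93.3 TPM to 2083, 2148 and 2699.5 TPM, a log2 fold change of 4.76 ± 0.19. Ctsb and Ctsl, both under Ctsd in control muscle, were above it in every unrepaired muscle at 3 days.

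Ctsz, Ctsa, Ctsh and Ctsc are exopeptidases, which trim protein ends. Ctsz went from a mean of 14.6 to 309 TPM (4.30 ± 0.27), Ctsa from 55.6 to 747 TPM (3.72 ± 0.21), Ctsh from 27.4 to 333 TPM (3.56 ± 0.21) and Ctsc, which activates granule serine proteases, from 29.7 to 250.5 TPM (3.04 ± 0.17). All 4 were called higher at 3 days, with adjusted p of 7.2e-21 or less.

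Ctsd was the member least changed. Its unrepaired values at 3 days were 1211, 1274 and 1519.6 TPM against 361 to 422 TPM in control, a log2 fold change of 1.76 ± 0.13 (adjusted p = 5.0e-18). After size factors the same difference was 0.62 ± 0.15 (adjusted p = 2.3e-04), which is under the fold limit, so the call was lost. The other 9 members were called higher at 3 days on both scales, with 24.7% of all genes called higher after size factors.

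**Figure D1:**
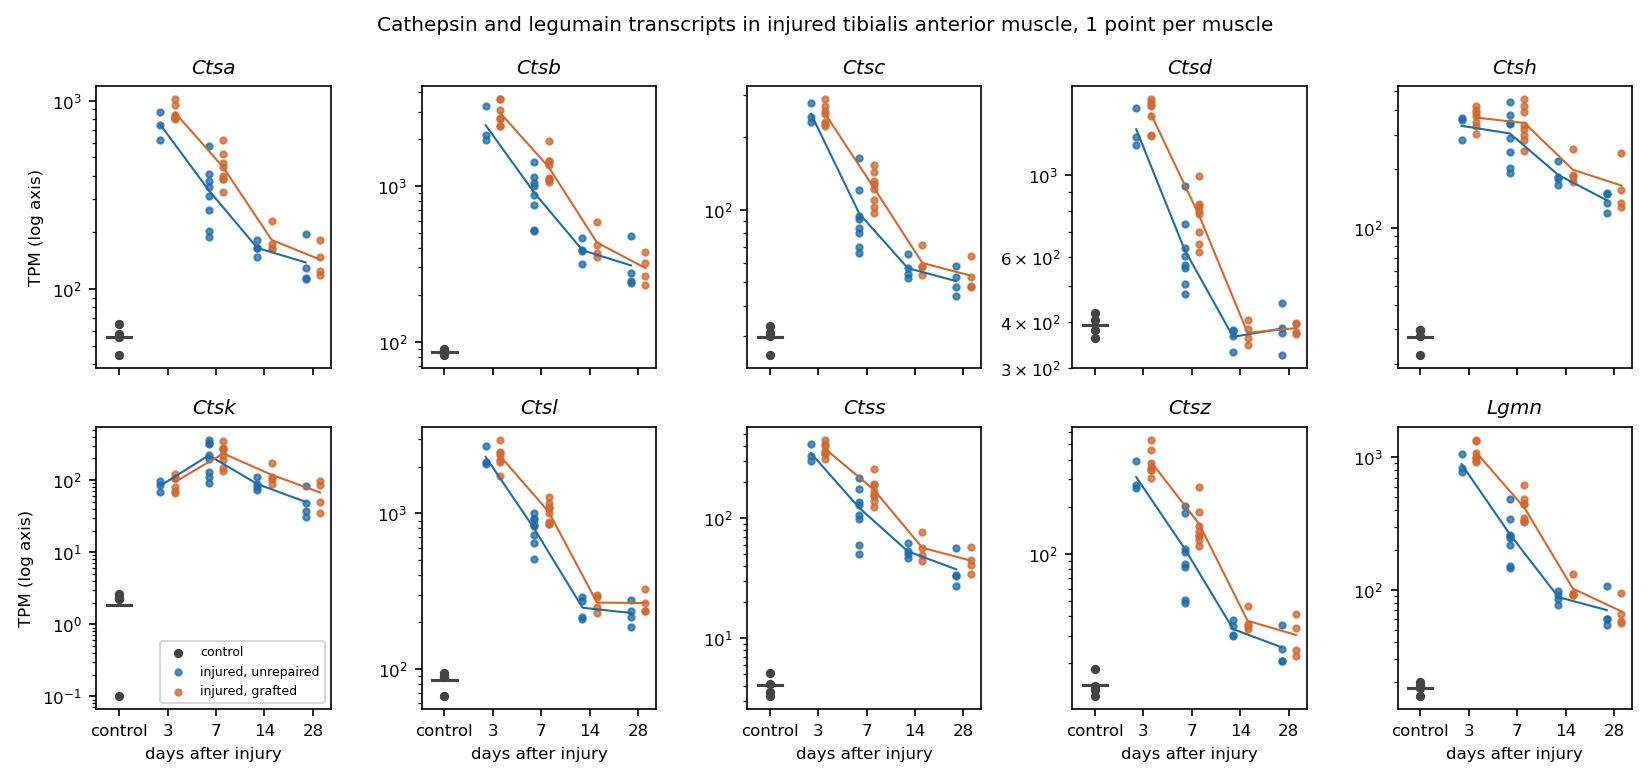
TPM (log axis, range set per panel) of each of the 10 genes in control muscle and in injured muscle, unrepaired or grafted, 3 to 28 days after injury in non-running rats, with 1 point per muscle and lines through group means. For 9 genes the means were highest at 3 days, Ctsk was highest at 7 days, and Ctsd overlapped with control at 14 and 28 days.

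Markers of other cells moved with these values. Of 18 macrophage markers tested, 18 were called higher at 3 and 7 days and 17 at 14 and 28 days in unrepaired against control muscle. The summed level of the macrophage list ranged from 30.8 to 51.0 TPM in control, 2416 to 3325 at 3 days, 543 to 1979 at 7 days, 485 to 616 at 14 days and 275 to 469 TPM at 28 days, and the listed marker Marco was at 0 in every control muscle. The sums of 10 fibroblast genes ranged from 90.0 to 269 TPM in control and were highest at 7 days, at 7695 to 22353 TPM, with all 10 genes called higher on each day. In bulk tissue more cells of a type and more RNA per cell cannot be told apart. Neutrophil markers were called higher for 6, 4, 3 and 0 of 7 genes over the 4 days, T cell markers for 5, 5, 5 and 1 of 5 and endothelial markers for 4, 5, 3 and 2 of 7. Over the same days 48.8%, 46.1%, 25.2% and 21.3% of all genes were called higher, so several of these counts, such as 4 of 7 or 1 of 5, lie near the background. The part of any of these cell types in the members' levels was not tested.

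The family then fell at different speeds. In unrepaired against control muscle, 9, 8 and 7 of the 10 members were still called higher at 7, 14 and 28 days, where 46.1%, 25.2% and 21.3% of all genes were called higher. The members' median log2 fold changes were 3.26, 1.86 and 1.60, against medians over all genes of 0.92, 0.53 and 0.52. After size factors 8, 5 and 5 members were called higher, where 21.9%, 15.7% and 11.4% of all genes were, and the members' medians were 2.18, 1.17 and 0.93. With both injured arms averaged, 8 members were called lower at 7 than at 3 days (4.76% of all genes), 7 at 14 than at 7 days (8.1%), 0 at 28 than at 14 days (0.936%) and 9 at 28 than at 3 days (26.2%). Within rats numbered up to 32, 6 were called lower at 7 than at 3 days (3.21% of all genes), and Ctsa (-0.86) and Ctsd (-0.96) were under the fold limit. After size factors 7, 3, 0 and 8 members were called lower in these 4 comparisons (3.77%, 2.29%, 0.815% and 14.5% of all genes), and the 3 between 7 and 14 days were Ctsl, Ctsz and Lgmn. On deposited TPM 4, 6, 0 and 11 of 12 fibre genes were called higher in the same 4 comparisons. Among all genes the shares were 2.27%, 0.874%, 0.223% and 4.99%. The part of the fibre genes in the members' fall was not tested.

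Ctsk was the member called higher at 7 than at 3 days. In unrepaired muscle its values were 68.3, 84.8 and 97.8 TPM at 3 days, and at 7 days they ran from 91.5 to 365 TPM with a median of 209 TPM. In grafted muscle the median was 106 TPM at 3 days (65.9 to 121) and 249.8 TPM at 7 days (135 to 349). In grafted muscle every 7-day value was above every 3-day value, whereas the 2 days overlapped in unrepaired muscle. The log2 difference with arms averaged was 1.25 ± 0.22 (adjusted p = 1.8e-06), a call made for 2.27% of all genes. Within rats numbered up to 32 in the labels, with 8 muscles a day, it was 1.68 ± 0.12. With all libraries kept it was 1.07 and was not called (adjusted p = 0.054).

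Against control, Ctsk in unrepaired muscle was 5.0275 ± 0.39 higher at 3 days, 6.26 ± 0.31 at 7, 5.1058 ± 0.36 at 14 and 4.20 ± 0.36 at 28 days on the log2 scale. Those differences placed Ctsk 147th, 29th, 28th and 35th among the 11213 genes. The 28-day values were 30.4, 37.1, 48.1 and 83.9 TPM, well above the control values of 0.1, 2.27, 2.34 and 2.62 TPM. Without the control muscle at 0.1 TPM the 4 differences were 4.62, 5.86, 4.70 and 3.79, all still called. The osteoclast list was at 12.95 to 20.55 TPM in control muscle and 25.6 to 73.1 TPM in unrepaired muscle at 7 days in sum, and 3, 4, 2 and 2 of its 5 tested genes were called higher over the 4 days, where 48.8%, 46.1%, 25.2% and 21.3% of all genes were. Its member Acp5, an acid phosphatase of osteoclasts and macrophages, went from 0.44 TPM in control to 24.2 TPM at 7 days. The part of these cells was not tested.

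Ctsh also persisted. Its unrepaired means were 333 TPM at 3 days, 304 at 7, 186 at 14 and 138 TPM at 28 days, and its 7-day level was 91.3% of its 3-day level. The difference between 7 and 3 days was -0.14 ± 0.12 and was not called (adjusted p = 0.28). At 28 days the values were 119, 134, 149 and 149.9 TPM against 22.0, 27.8, 29.8 and 29.9 TPM in control, a log2 fold change of 2.30 ± 0.19 (adjusted p = 5.6e-15).

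In unrepaired muscle Lgmn, Ctsl and Ctsz lost the largest shares of their 3-day levels. At 28 days their unrepaired means were 7.90%, 9.90% and 8.19% of those at 3 days, whereas Ctsh stood at 41.4% and Ctsk at 59.6%. In grafted muscle Lgmn (6.30%) and Ctsz (7.80%) were lowest, and Ctsb (10.1%) stood below Ctsl (11.3%). The 28-day unrepaired Lgmn values of 54.2, 59.7, 60.1 and 106 TPM still exceeded every control value (1.84 ± 0.22). Ctsz at 20.6, 20.7, 24.7 and 35.3 TPM did not overlap with control either, but its difference of 0.73 ± 0.25 (adjusted p = 0.0092) was under the fold limit. Ctsc was likewise under it, at 0.75 ± 0.16, and after size factors neither Ctsc (0.09 ± 0.13) nor Ctsz (0.09 ± 0.26) passed the p limit.

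Ctsd was the member whose values overlapped with control at 14 and 28 days, when 59.1% and 60.4% of all genes lay wholly above control. At 7 days its unrepaired values ran from 478 to 933 TPM with a median of 587, a difference of 0.65 ± 0.11 from control that was under the fold limit. At 14 days the values were 332, 367, 377 and 381 TPM, and at 28 days 324, 374, 385 and 451 TPM, differences of -0.11 ± 0.12 and -0.04 ± 0.12 (adjusted p = 0.44 and 0.78). After size factors these 3 differences were -0.44 ± 0.12, -0.80 ± 0.14 and -0.72 ± 0.14, with adjusted p of 7.9e-04, 1.4e-06 and 1.3e-05 and sizes under the fold limit, so the sign at 7 days flipped with the scale.

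**Figure D2:**
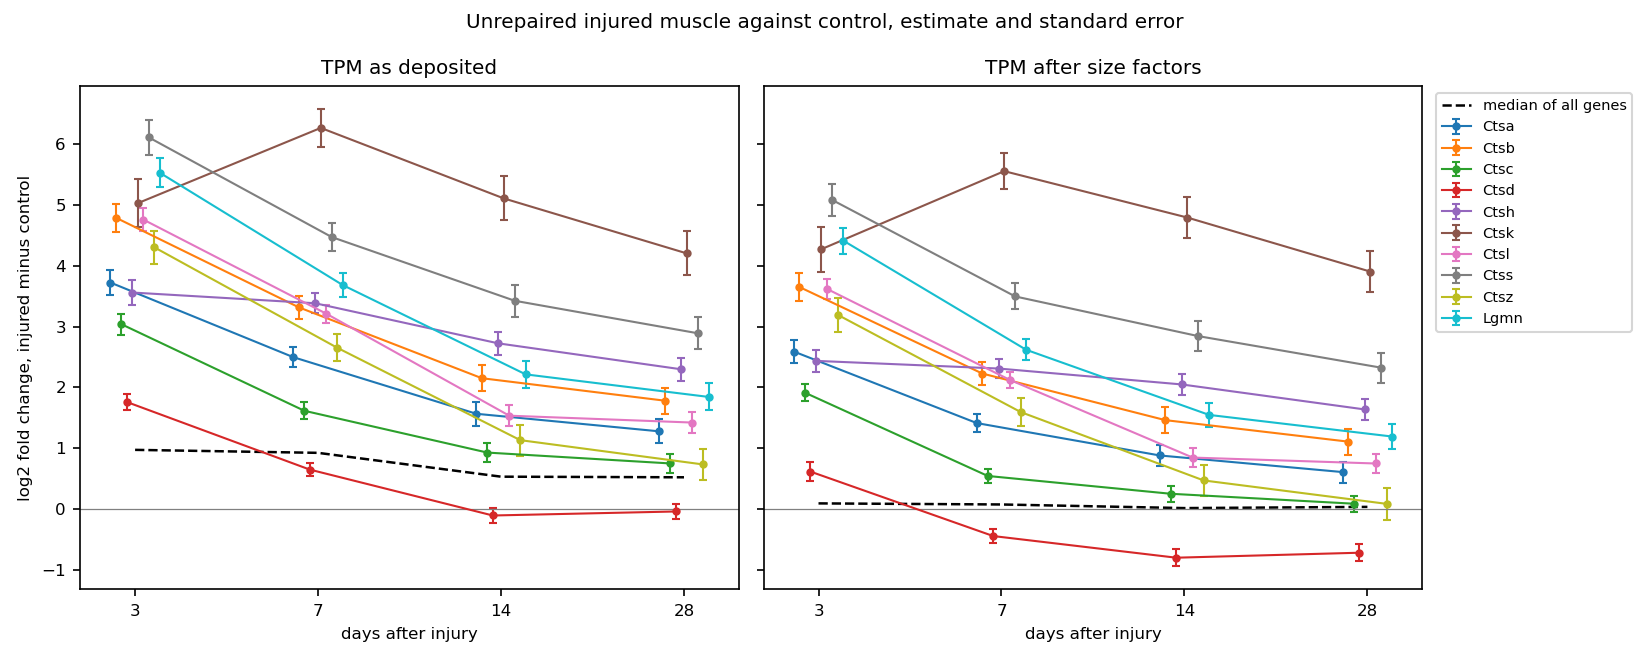
Log2 fold change of each gene in unrepaired injured against control muscle by day, from limma on deposited TPM (left) and on TPM after size factors (right), with standard errors and the median of all genes as a dashed line. Ctsk leads from 7 days on, and Ctsd lies below the median of all genes from 7 days on in both, with its 7-day value at 0.65 on deposited TPM and -0.44 after size factors.

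The make-up of the family therefore differed between days. Ctsd made up 55.0% of the summed TPM of the 10 genes in control muscle, 14.8% at 3 days, 16.96% at 7, 21.9% at 14 and 27.2% at 28 days in unrepaired muscle. Ctsb made up 12.04% in control and 26.8% at 3 days, and Ctsl 11.8% and 25.6%. Ctsk rose from 0.249% of the sum in control to 5.62% at 7 days. The sum itself was 3785 TPM at 7 days, 1670 at 14 and 1432 TPM at 28 days, and its lowest muscle at 28 days (1219 TPM) was above the highest control muscle (751 TPM). These shares do not depend on the scaling of the library.

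**Figure D3:**
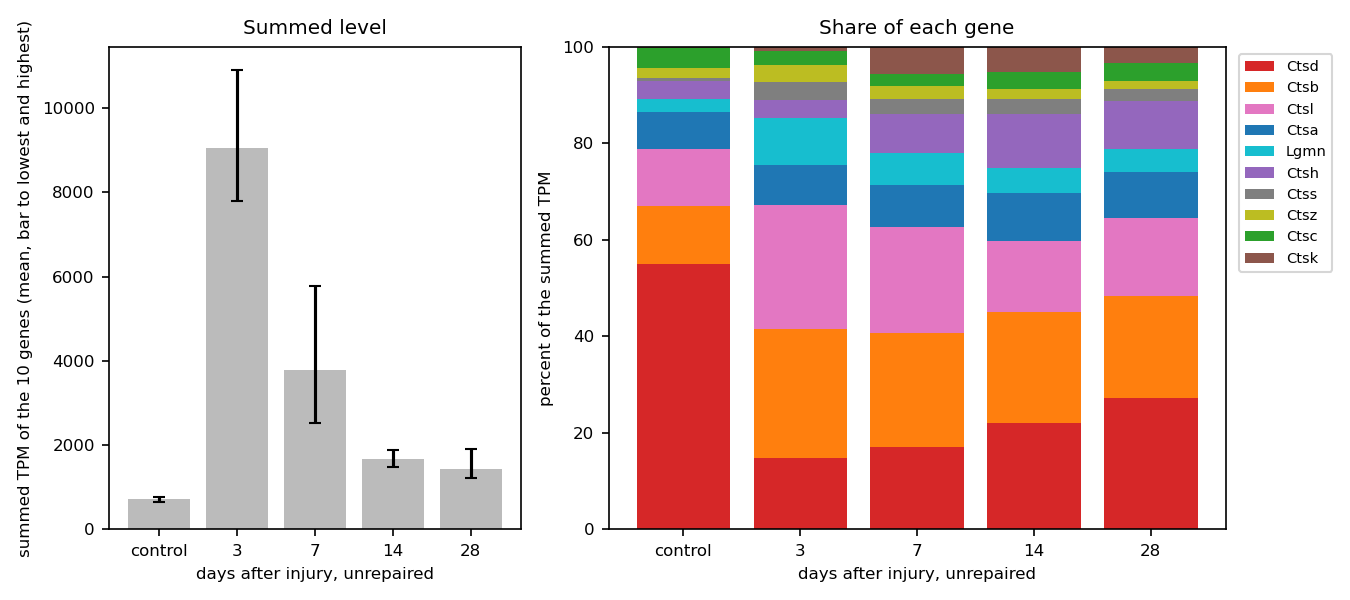
Left, summed TPM of the 10 genes in control and unrepaired injured muscle by day, with bars at the mean and lines to the lowest and highest muscle. Right, percent of that sum held by each gene, in which Ctsd shrinks from 55.0% in control to 14.8% at 3 days.

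Grafted muscle against the same control muscles gave 10, 9, 8 and 7 members called higher at 3, 7, 14 and 28 days, where 54.1%, 51.5%, 32.1% and 25.6% of all genes were called higher. At 14 days 5 were called after size factors, where 17.3% of all genes were. Against their own contralateral group, unrepaired muscles had 10, 9, 8 and 6 members called higher (32.6%, 45.8%, 21.2% and 13.3% of all genes) and grafted muscles 10, 10, 8 and 7 (37.6%, 43.3%, 25.9% and 19% of all genes). After size factors unrepaired muscles had 5 called at 14 days (10.5% of all genes) and grafted muscles 4 at 28 days (9.56%). With all libraries kept, unrepaired muscles had 5 called at 14 and 3 at 28 days (18.1% and 10.5% of all genes), and grafted muscles 4 at 28 days (16%). The members' median differences there were 1.75, 1.39 and 1.42, the same as with the low libraries dropped. Lgmn in unrepaired against contralateral muscle was 4.29, 3.71, 2.13 and 1.66 higher on the log2 scale over the 4 days, and Ctsk 2.87, 5.16, 3.67 and 3.02. Ctsk was thus less different from contralateral than from control muscle at 3 days, where the contralateral muscle itself stood above control.

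In the contralateral leg, which had no injury, all 10 members lay above the control range at 3 days, as did 54.9% of all genes, and all 10 had an adjusted p under 0.05, as did 66.7% of all genes in the higher direction. With both arms averaged 5 were called higher, where 7.13% of all genes were called higher. Ctsk read 6.54 and 16.5 TPM in the unrepaired rats and 8.63 and 15.6 TPM in the grafted rats, against 2.62 TPM or less in control, a log2 fold change of 2.23 ± 0.36 (adjusted p = 1.5e-06). Ctss read 11.6 and 24.5 TPM and 17.4 and 21.0 TPM in the same arms, a log2 fold change of 1.93 ± 0.26. Ctsh (1.32 ± 0.19), Lgmn (1.29 ± 0.22) and Ctsl (1.17 ± 0.17) completed the 5. After size factors only Ctsk (2.02 ± 0.34) and Ctss (1.45 ± 0.25) remained called at 3 days, as 2 of the 10 where 2.74% of all genes were called higher, and Ctsd changed sign (-0.14 ± 0.14).

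The later contralateral differences were smaller. At 7 days Ctsk was called (1.29 ± 0.30, with 0.919% of all genes called), at 14 days Ctsk (1.38 ± 0.36) and Ctss (1.22 ± 0.26, with 0.999%), and at 28 days Ctss (1.12 ± 0.26, with 0.508%). Without the control muscle at 0.1 TPM, Ctsk was 0.88 higher at 7 days (adjusted p = 0.051) and 0.97 at 14 days (adjusted p = 0.092), and neither was called. With the control muscles averaged per rat, Ctsk was not called at 7 or 14 days (1.17 and 1.26, adjusted p = 0.066 and 0.11), nor Ctss at 28 days (1.11, adjusted p = 0.13). The 14-day call of Ctsk was also lost without the contralateral muscle at 5.95 TPM or that at 8.68 TPM (adjusted p = 0.060 and 0.10). The 28-day call of Ctss was lost without the control muscle at 0.1 TPM of Ctsk (adjusted p = 0.069), without the grafted rat at 10.78 TPM (adjusted p = 0.054) and without the unrepaired rat at 9.81 TPM (adjusted p = 0.069). With all libraries kept none of these later calls held, at differences of 1.64 and 1.38 for Ctsk at 7 and 14 days and 1.22 and 1.12 for Ctss at 14 and 28 days, which are as large as or larger than before. At 28 days Ctss read 8.26 and 9.81 TPM in unrepaired and 10.6 and 10.8 TPM in grafted rats, all above the highest control value of 5.16 TPM. Ctsh read above every control value at each of the 4 days. The share of all genes above every control value was counted at 3 days alone (54.9%). The Ctsh differences of 0.87 ± 0.16 at 7 days, 0.71 ± 0.19 at 14 and 0.41 ± 0.19 at 28 days were under the fold limit. At 28 days Ctsh also failed the p limit, which only Ctss passed.

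Markers moved here as well. At 3 days 15 of 18 macrophage markers and 10 of 10 fibroblast markers were called higher in contralateral than in control muscle. Among all genes 7.13% were. Lower calls were made for 0 of 12 fibre genes and 0.0624% of all genes. The macrophage sum ranged from 117 to 255 TPM in contralateral muscle of unrepaired rats and from 194 to 230 TPM in that of grafted rats, against at most 51.0 TPM in control. At 7, 14 and 28 days 2, 6 and 2 macrophage markers and 7, 7 and 2 fibroblast markers were called higher. The shares of all genes were then 0.919%, 0.999% and 0.508%. The part of these markers' cells in the members' levels was not tested.

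**Figure D4:**
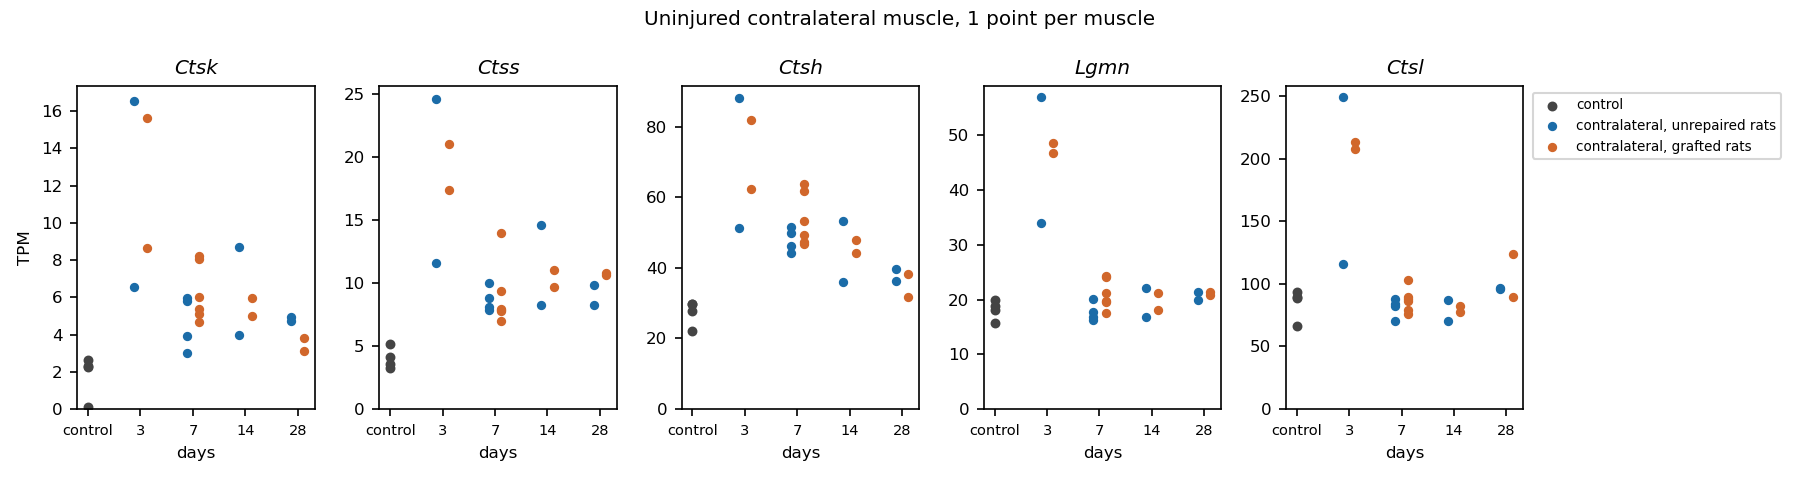
TPM of the 5 members called higher in contralateral muscle at 3 days, in control muscle and in contralateral muscle of unrepaired and grafted non-running rats, 1 point per muscle. At 3 days every contralateral point lies above the control points, and with both arms pooled Lgmn and Ctsl overlap with control from 7 days on.

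The graft was compared with no repair in injured muscle on each day. No member was called higher or lower on any day, with exceptions at 7 days under other settings that are given with that day, and of all genes 0%, 0.0892%, 0.0268% and 0% were called higher at 3, 7, 14 and 28 days. At 3 days the members' differences ran from -0.01 to 0.33, at 14 days from 0.04 to 0.39 and at 28 days from -0.02 to 0.42 on the log2 scale, with adjusted p of 0.44 or more, and at an unadjusted p under 0.05 there were 0, 0 and 0 members, where 18%, 5.53% and 1.41% of all genes passed it. After size factors these ranges were -0.17 to 0.16, -0.10 to 0.26 and -0.11 to 0.33, and at 14 days Ctsa, Ctsc, Ctsd, Ctsh, Ctsl and Ctss were below 0. The same fit gave no member for which the difference between injured and contralateral muscle itself differed with the graft, on any day (0% of all genes called higher), and 3 members had an unadjusted p under 0.05 at 7 days, where 11.4% of all genes did. After size factors 8 members did, where 14.6% of all genes did, and none of the 10 had an adjusted p under 0.24.

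At 7 days 8 of the 10 members had an adjusted p under 0.05 with a higher level in grafted muscle, where 9.12% of all genes did. Lgmn ran from 146 to 483 TPM with a median of 248 in 8 unrepaired muscles and from 326 to 618 TPM with a median of 394 in 8 grafted muscles, a difference of 0.73 ± 0.16 (adjusted p = 0.0024). Ctsz (0.63 ± 0.18), Ctss (0.61 ± 0.19), Ctsb (0.59 ± 0.15), Ctsa (0.46 ± 0.14), Ctsc (0.40 ± 0.11), Ctsl (0.37 ± 0.12) and Ctsd (0.32 ± 0.09) followed. Ctsh (0.21 ± 0.14) and Ctsk (0.19 ± 0.26) did not pass. The 2 groups overlapped for every member, and each difference was under the fold limit.

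After size factors Lgmn alone passed (0.61 ± 0.14, adjusted p = 0.010 by limma). The members' median difference went from 0.43 to 0.31 with that scaling, and the median over all genes from 0.11 to 0.0016. In rats numbered up to 32 in the labels, 4 muscles a group, no member and 0% of all genes passed, and the median difference was 0.18 over the members and 0.054 over all genes. In the rats with the higher numbers, also 4 a group, 8 members and 18.7% of all genes passed, and the medians were 0.68 and 0.17. There Ctss and Lgmn (both 1.06, adjusted p = 0.0050 and 0.00066) also passed the fold limit, as 1.17% of all genes did. With all libraries kept Lgmn passed it (1.09, adjusted p = 0.0095), as 1.03% of all genes did, and 3 members passed by adjusted p alone, as 24.7% of all genes did. The difference between the 2 sets of rats was not itself tested. Leaving out 1 muscle at a time left between 1 and 8 members, with 1 left without the unrepaired muscle of rat TS5.125, 2 without that of TS5.126 or the grafted muscle of TS5.023, 3 without the unrepaired muscle of TS5.106 or the grafted muscle of TS5.015, and 5 without the grafted muscle of TS5.127. The macrophage sum ranged from 543 to 1979 TPM in unrepaired and from 1263 to 2458 TPM in grafted muscle, with 1 of 18 markers (the scavenger receptor Msr1) called higher, and its part was not tested.

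**Figure D5:**
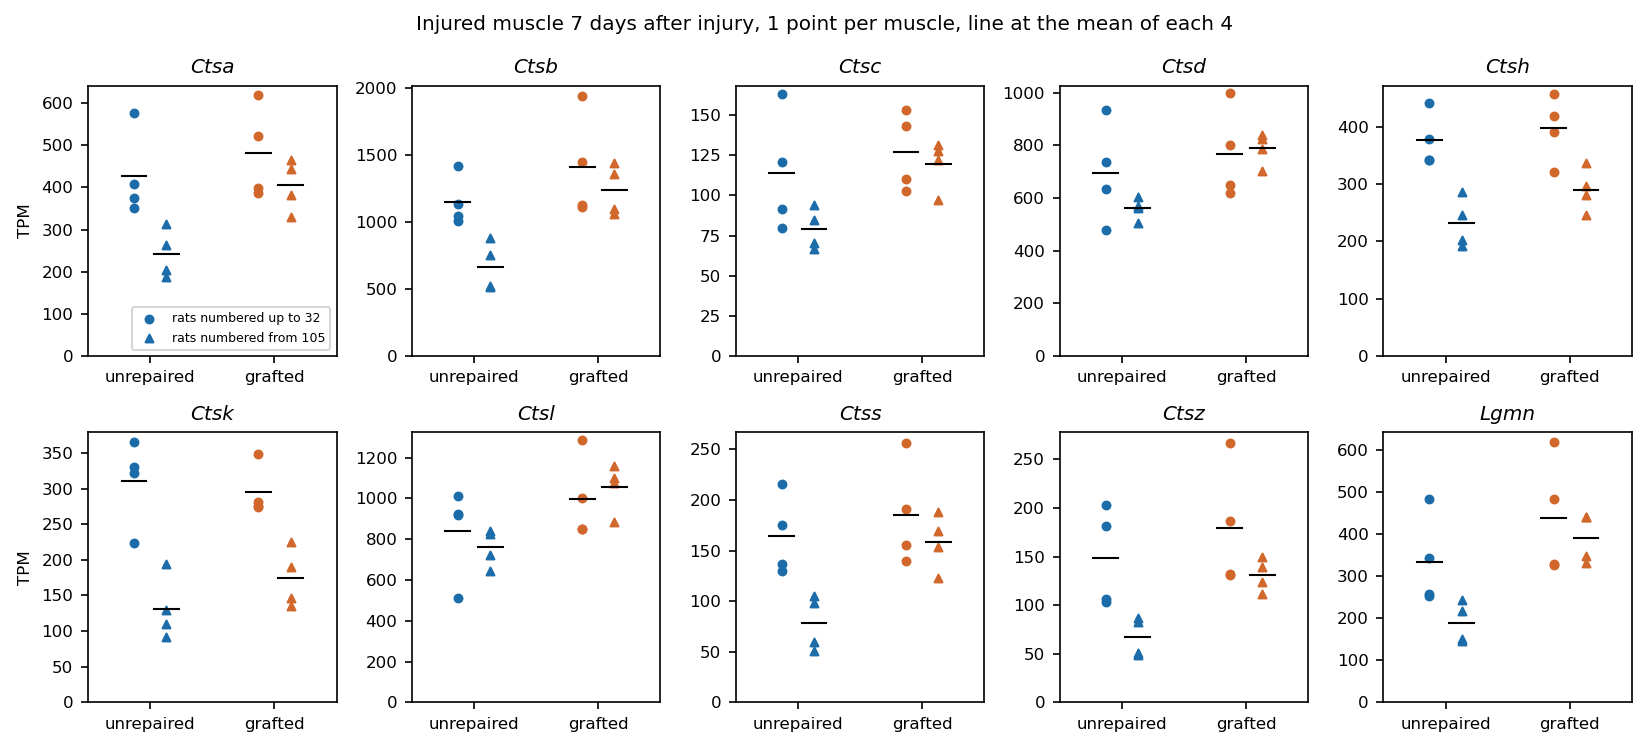
TPM of each gene in unrepaired and grafted injured muscle at 7 days, 1 point per muscle, with circles for rats numbered up to 32, triangles for the rats with higher numbers and black lines at the mean of each 4 muscles. The 2 arms lie closer together among the circles than among the triangles for genes such as Lgmn and Ctss.

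Running and non-running rats were compared in a fit over all 31 groups with 11328 genes tested. No member was called higher or lower in running against non-running injured muscle at any of the 4 days, with 0% of all genes called higher on each, and the differences ran from -0.21 to 0.56. At an unadjusted p under 0.05 there were 0, 2, 4 and 0 members over the 4 days, where 16%, 15.8%, 5.17% and 13.7% of all genes passed it. In contralateral muscle no member was called at 3, 7 or 14 days (0, 4 and 0 at an unadjusted p under 0.05, as were 12.5%, 13.4% and 1.13% of all genes), with 0.221%, 0.00883% and 0% of all genes called higher. Injured against contralateral muscle of running rats had 10, 10 and 8 members called higher at 3, 7 and 14 days, where 35.6%, 40% and 24.6% of all genes were called higher. The groups of 2 running muscles at 28 days were uneven for Ctsk, with 38.5 and 268 TPM in the grafted arm and 39.9 and 46.8 TPM in the unrepaired arm.

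Other genes of the same system were read from lists. Of 14 further cathepsins, 11 were in the table and 3 passed the filter on low values, and all 3 were called higher in unrepaired muscle at 3 and 7 days. Ctsf, a lysosomal cysteine protease, went from 21.8 to 81.0 TPM at 3 days (1.84 ± 0.13), Ctse, an aspartic protease of immune cells, from 0.14 to 7.83 TPM, and Ctsw, found in cytotoxic lymphocytes, from 0.13 to 3.60 TPM. At 14 and 28 days Ctse and Ctsw were called. Of 9 serine proteases that Ctsc is known to activate, 6 were tested and 3, 4, 3 and 2 were called higher over the 4 days, which is near the share of all genes at 3 days. Over these days 48.8%, 46.1%, 25.2% and 21.3% of all genes were called higher.

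Of 20 cystatins, stefins and kininogens, which inhibit cysteine cathepsins, 16 were in the table and 4 were tested. All 4 were called higher at 3 and 7 days, and 3 at 14 and 28 days, where 48.8%, 46.1%, 25.2% and 21.3% of all genes were called higher over the 4 days. Cstb, a cytosolic inhibitor, went from 30.1 TPM in control to 436 at 3 days and 78.5 at 28 days, and Cst3, a secreted one, from 458 to 1312 and 1216 TPM. Cst6 fell fastest, from 23.4 TPM at 3 days to 4.89 at 7 and 1.32 TPM at 14 days in unrepaired muscle. At 14 days it was called higher in grafted than in unrepaired muscle, as 0.0268% of all genes were. Cst7, an inhibitor of cathepsins in immune cells, had means of 5.17 TPM in control and 24.7, 66.1, 20.0 and 64.9 TPM over the 4 days. At 28 days Cst7 was called lower in running than in non-running injured muscle, as 0.309% of all genes were. With arms averaged in non-running muscle, Cst7 was called higher at 7 than at 3 days (1.05) and lower at 14 than at 7 days (-1.32). It was called higher again at 28 than at 14 days (1.25). No member was called higher at 28 than at 14 days, where 0.223% of all genes were.

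Of 17 tested partners and sorting factors, 12, 9, 6 and 6 were called higher over the 4 days in unrepaired against control muscle, where 48.8%, 46.1%, 25.2% and 21.3% of all genes were called higher, so the counts at 7, 14 and 28 days are not far from the background. Those called on every day were Cd74 (the invariant chain that Ctss cleaves), Ifi30 (a lysosomal thiol reductase), Grn (progranulin, which cathepsins process), Glb1 (the β-galactosidase that Ctsa protects), Lamp2 (a lysosomal membrane protein) and Igf2r (a receptor that sorts lysosomal enzymes). Cd74 went from 36.2 TPM to 783 TPM at 3 days and 195 TPM at 28 days, and Ifi30 from 8.90 to 359 and 36.0 TPM. Tfe3, a factor of lysosomal genes, was 1.27 ± 0.10 higher at 3 days and was called there, and Tfeb, its relative, differed by -0.22 ± 0.12 (adjusted p = 0.079). Psap, a carrier of sphingolipid activators, was at 613 TPM in control and 1212 TPM at 3 days, 0.97 ± 0.13 higher and just under the fold limit.

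The genes with the pattern most like each member were found by the mean absolute difference in log2 fold change against control over the 8 non-running injured groups, which share the control muscles. The nearest 2 were Tlr2 and Tuba1c for Lgmn, Ifitm1 and Pltp for Ctss, Hcls1 and Soat1 for Ctsb, Trpv2 and Igsf6 for Ctsl, Cd180 and Arl11 for Ctsz, Gdf15 and Arl6ip1 for Ctsa, Dnase2 and Htatip2 for Ctsc, Scrn1 and Itm2c for Ctsh, and Rnaset2 and Apitd1 for Ctsd, at distances of 0.044 to 0.147. Ctsk was nearest to Loxl1, an enzyme that crosslinks elastin and collagen, at 0.228, and to Tmem8c, the myoblast fusion factor myomaker, at 0.264, farther than the nearest gene of any other member. Among the members themselves, Ctsb and Ctsl were the closest pair at 0.314, and Ctsd and Ctsk the most distant at 4.66.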

How the data were processed

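Total RNA from rat TA muscle was sequenced by the authors as 76 bp paired-end TruSeq libraries and quantified with Kallisto against rat genome build 6.0. The tool's version is not given in the sources used here. The deposited values are TPM per gene symbol, which keep no sequencing depth, so the depth behind each value is not known per library and no counting interval is given.

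Of 138 libraries, 13 with 901 to 5712 symbols above 1 TPM were left out (5 non-running, 8 running), and those kept had 7866 to 10948. A further 9 libraries had labels that contradict each other and entered no group. Repeat libraries of a muscle were averaged. The members, gene lists and tests were chosen with earlier results of these data known.

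Genes whose mean reached 1 TPM in at least 1 group were fitted as log2(TPM + 1) in limma 3.58.1 (R 4.3.3), with 1 mean per group, an intensity trend, and Benjamini-Hochberg adjusted p over all genes tested. Calls needed an adjusted p under 0.05 and a log2 fold change above 1 or below -1, and fold changes on this scale understate the change of low genes. Non-running muscles formed 1 model, and all muscles a second one for running. The p-values measure spread between muscles, some of which share a rat. The 10 members were named in all comparisons, list genes as examples, and the 2 nearest genes by likeness for each member. Deviations of muscles of the same rat in different groups had a mean correlation of 0.0936 over 22 pairs. The 2 legs of each control rat share a group, so they are not among these pairs. Alternatives were size factors, a pseudocount of 0.1 TPM, no filter, all libraries kept, a rat block, single muscles left out and others given at the end, and the scripts were tested on simulated data. Promoter sequences are RefSeq's on GRCr8, a different build from the authors', searched in Python 3.11.15.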

Additional observations from a re-analysis of the deposited data

Results flagged for a closer look

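In 160 sets of 4 to 8 muscles (1 gene in 1 group), the end muscle's gap to its neighbour was compared with the range of the set (Dixon's 95% limit), and 9 sets passed, where chance passes about 1 in 20. The control Ctsk set was one, with 1 muscle at 0.1 TPM and the next at 2.27 TPM. A running unrepaired muscle at 7 days was far above the others for Ctsa (664.55 TPM, next 375.28) and Ctsb (1989.61 TPM, next 1076.09). A grafted muscle at 14 days was highest for Ctsa (228.98 TPM, next 172.78) and Lgmn (130.59 TPM, next 93.67). An unrepaired muscle at 28 days was highest for Ctsb (476.12 TPM, next 275.08) and Lgmn (106.45 TPM, next 60.1). In these 3 pairs the same muscle stood out for both genes. The remaining 2 were Ctsb in a grafted muscle at 7 days (1942.91 TPM, next 1444.17) and Ctss in a contralateral muscle of a grafted rat at 7 days (13.99 TPM, next 9.37).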

How the results depend on the processing

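The depth of each library is unknown, so low values carry an error that could not be stated. With the 2 legs of a rat as a block, no member's call changed (for the graft at 7 days 0 members were called with and without the block). The fitted correlation within a rat was -0.0074 in the non-running model and 0.026 in that of all muscles. The block therefore hardly altered the fit, and unchanged calls cannot show that shared rats do not matter. No filter, each library as its own sample, and running muscles in the same model left every count of members within 1.5 times. The refits within rat numbers, the count by adjusted p for the graft and its refits without single muscles were chosen after seeing the data, and the cause of the changes below was not tested. With size factors, members called higher in contralateral against control muscle went from 5 to 2 at 3 days and from 1 to 2 at 28 days, in unrepaired against control and in unrepaired against contralateral muscle at 14 days from 8 to 5, in grafted against control muscle at 14 days from 8 to 5, in grafted against contralateral muscle at 28 days from 7 to 4, lower between 7 and 14 days from 7 to 3, and members with an adjusted p under 0.05 for the graft at 7 days from 8 to 1. For that graft comparison the members' median difference went from 0.43 to 0.31, and that of all genes from 0.11 to 0.0016. With all libraries kept, contralateral calls went to 2, 0, 0 and 0 over the 4 days. The shares of all genes there were 5.16%, 0.0536%, 0.0536% and 0.0357%. Calls in unrepaired against contralateral muscle went to 5 at 14 and 3 at 28 days, and in grafted against contralateral muscle to 4 at 28 days. The graft at 7 days went to 1 called and 3 by adjusted p. With adjusted p alone, contralateral counts were 10 at 3 and 3 at 7 days (66.7% and 11.7% of all genes), the graft count at 7 days was 8, and 3 members were lower at 28 than at 14 days. A pseudocount of 0.1 TPM gave 2 contralateral calls at 7 and at 28 days, and control muscles averaged per rat gave 0 at 7, 1 at 14 and 0 at 28 days. Rats numbered up to 32 gave 0 members by adjusted p for the graft, Ctsk at -0.059 there and Ctsh at 0.11 between 7 and 3 days, and the rats with higher numbers gave 2 called. Leaving out 1 muscle gave contralateral calls of 4 to 5, 0 to 2, 1 to 2 and 0 to 1 over the 4 days, graft counts by adjusted p of 1 to 8, 0 to 1 lower at 28 than at 14 days and 0 to 2 for running contralateral muscle at 7 days. Signs reversed with size factors in contralateral muscle for Ctsc at 14 days (-0.023), Ctsd at 3 (-0.14) and 28 days (-0.017), Ctsz at 7 (-0.060) and 28 days (-0.15) and Lgmn at 7 days (-0.034), and for Ctsd at 7 days in grafted (-0.24) and unrepaired (-0.44) against control and in unrepaired against contralateral muscle (0.85 to -0.25, and at 14 days 0.098 to -0.57) and, at 14 days, in grafted against contralateral muscle (0.11 to -0.60). Several small graft differences at 3, 14 and 28 days also changed sign. With all libraries kept they reversed at 7 days in contralateral muscle for Ctsa (-0.51), Ctsb (-0.61), Ctsz (-0.61) and Lgmn (-0.42). Without single muscles, contralateral Ctsc ran from -0.032 to 0.12 at 14 days and -0.11 to 0.023 at 7 days, Ctsl from -0.11 to 0.049 at 7 days, Ctsz from -0.042 to 0.14 at 28 and -0.0098 to 0.17 at 7 days, and Ctsd at 28 days from -0.066 to 0.0089 in grafted and -0.12 to 0.037 in unrepaired against control muscle.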

Other observations

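In all 9 libraries the labels contradict each other, and they are not in the comparisons. In the 4 rats concerned, libraries whose titles name the control leg but whose other labels name the injured leg, or the reverse, had these values. The 4 titled as control read 29.5 to 72.0 TPM for Ctsk, 28.2 to 45.4 for Ctss and 50.2 to 65.5 for Lgmn. The 4 titled as injured read 3.15 to 3.74 TPM for Ctsk, 6.38 to 10.8 for Ctss and 20.3 to 25.9 for Lgmn. The remaining library, of another rat with a conflicting day, read 13.98 TPM for Ctsk, 13.98 for Ctss and 24.8 for Lgmn.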
